A study of Mus musculus with 6 samples.

Results

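The genes described here are the ligands, receptors and antagonists of the Wnt pathway, together with a few of its intracellular feedback genes and its TCF/LEF transcription factors, in wildtype mouse embryos and in embryos homozygous for a mutation of *Zic2*. Members were taken by gene symbol: the Wnt, Fzd, Sfrp, Dkk and Rspo families, and *Lrp5*, *Lrp6*, *Axin1*, *Axin2*, *Lef1*, *Tcf7l1*, *Tcf7l2*, *Nkd1*, *Nkd2*, *Notum*, *Wif1* and *Porcn*. The receptor gene *Fzd5* was left out. The rule found 52 of the 19057 genes with a named probe, read by 94 of the 45281 probes on the array.

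RNA was measured in 6 pools of whole embryos at E8.0 to E8.5, each of 8 stage-matched embryos hybridised to 1 Illumina Mouse WG6 v2 array. Of these pools, 3 were Zic2 iso/iso, homozygous for an allele from an ethylnitrosourea screen that carries a premature stop codon in the fifth zinc finger of ZIC2, and 3 were wildtype (Zic2 +/+). Both genotypes came from intercrosses of Zic2 iso/+ parents on the C3H/HeH background. A pool averages 8 embryos and every tissue in them, so that fewer cells of a type and less RNA per cell cannot be told apart. The comparison asks which genes differ in expression when *Zic2* is mutated.

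Wnt ligands are secreted, lipid-modified glycoproteins. They bind Frizzled receptors with an LRP5 or LRP6 co-receptor, which blocks the Axin-based complex that destroys β-catenin, and β-catenin then acts with TCF/LEF factors on target genes. Secreted Frizzled-related proteins and WIF1 bind the ligands, Dickkopf proteins act on the LRP co-receptors, NOTUM removes the lipid from the ligand, and R-spondins raise the number of receptors on the cell surface. In the early embryo the pathway maintains the primitive streak and tail bud, and its inhibition at the anterior end permits formation of the forebrain.

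Levels are quantile-normalised log2 intensities and differences are Zic2 iso/iso minus wildtype on that scale, with the standard error (SE) of the limma fit. Genes are given by their brightest probe unless stated. A background level of 7.47 was set as the 95th percentile of 1608 probes for olfactory and vomeronasal receptor, keratin-associated protein and defensin genes, families with no known role in the early embryo. No background was subtracted, which shrinks the differences of dim genes. Of the 52 members, 33 were above the background level in both genotypes, 6 in 1 genotype and 13 in neither, and no direction is given for the last. The lowest p that an exact two-sided permutation test of 3 against 3 pools can give is 0.1. The methods name littermates as the controls, so that the genotypes can share litters, but no source used here ties a pool to a litter or says that pools of a genotype came from separate ones, and p-values measure the spread between these pools.

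The pools differed in their tissue markers, and 1 mutant pool stood apart in those of heart and blood. Zic2 iso/iso replicate 3 had the lowest level of the heart actin gene *Actc1*, at 10.83 against 11.75 and 12.15 in the other mutant pools and 11.95 to 12.40 in wildtype. It was also lowest in the embryonic globin gene *Hbb-bh1*, at 9.04 against 10.75 and 12.87 in the other mutant pools and 11.55 to 12.17 in wildtype. Mutant replicate 1, at 12.87, lay above every wildtype pool. Over 4 measured markers of primitive blood, the summed intensity ranged from 1071 to 9431 in mutant and from 4077 to 5998 in wildtype pools, and over 3 of the heart from 3020 to 6521 and from 6567 to 8055. Of the blood markers 1, *Gata1* of red cells, was below the background level. Summed over 5 somite and presomitic mesoderm markers, all above the background level, the intensity was 2751 to 3199 in mutant and 3243 to 3915 in wildtype pools. Of 5 forebrain markers, *Otx2* alone was above the background level in both genotypes, and *Six3*, *Hesx1* and *Lhx2* were in neither. *Rax* of the eye field was at 7.52, 7.75 and 7.73 in wildtype and 7.26, 7.32 and 7.40 in mutant pools, with separate pools (limma adjusted p = 0.29). All 6 markers of yolk sac and visceral endoderm were higher in mutant pools by sign, with a median difference of 0.12. Among them *Apob*, at 0.50 (limma adjusted p = 0.15), had separate pools. Of 4 surface ectoderm markers 3 were higher, and *Cdh1* (0.29) and *Trp63* (−0.09) had separate pools. Values without Zic2 iso/iso replicate 3 are given where a result rests on it, and the part of tissue makeup in the results was not tested. The brightest probe of *Zic2* was at 8.27, 8.06 and 8.00 in wildtype and 7.64, 7.57 and 8.01 in mutant pools, a difference of −0.37 (SE 0.11, limma adjusted p = 0.61). A second *Zic2* probe gave 0.12, with a mean above the background level in mutant pools only (7.42 in wildtype and 7.54 in mutant). The allele is a stop codon and not a deletion. The paper reports no significant fall of the *Zic2* transcript on its array and detects it in mutants by qRT-PCR. It proposes that the transcript may escape nonsense-mediated decay. The *Zic2* probes are therefore no check of the labels.

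Promoter windows were searched on both strands for letters of the core TCF/LEF site (CTTTGAT or CTTTGAA) and of a core site bound by ZIC proteins (CCTGCTG). None of these words can match at the same position as another. The putative ZIC2 sites that the paper describes in a *Nodal* enhancer do not hold this ZIC word, so the search would miss sites of that kind. RefSeq (GRCm38.p6) gave 40 windows for 33 of the members. In the 250 bases before the start, either TCF/LEF word was present in 7.5% of these 40 windows and 7.5% of 32851 windows of all genes, and the ZIC word in 17.5% and 8.4%. The TCF/LEF words lay in windows of *Dkk1*, *Wnt5b* and *Wnt11*, and the ZIC word in windows of *Lef1* (2 of its 4 windows), *Dkk2*, *Wnt5b*, *Fzd4*, *Nkd1* and *Wnt9b*. The 2 *Lef1* windows overlap and hold the same copy of the word, which the 17.5% counts in both. Member windows were richer in G and C, with a median of 66.6% against 52.4%. The 4 windows that follow lie wholly before their gene in the annotation and belong to members described below. *Dkk1* has a TCF/LEF word 117 bases before its start and *Lef1* a ZIC word on the opposite strand at 67 bases. Their differences were 0.02 each. *Fzd10* (0.20) and *Tcf7l1* (0.19), among the larger differences, have none of the words in these windows. *Wnt5b* (0.25) and *Nkd1* (−0.22), also among the larger differences, do have words, as listed above. Whether the words go with the differences was not tested. Capitals mark the words. A word is a description of the letters and not a binding site.
*Dkk1*, chr19:30549497-30549746, minus strand: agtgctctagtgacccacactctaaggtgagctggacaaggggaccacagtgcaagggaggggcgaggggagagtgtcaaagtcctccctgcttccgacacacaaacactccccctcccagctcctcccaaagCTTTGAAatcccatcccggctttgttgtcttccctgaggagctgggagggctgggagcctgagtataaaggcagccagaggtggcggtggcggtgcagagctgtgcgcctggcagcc
*Lef1*, chr3:131110047-131110296, plus strand: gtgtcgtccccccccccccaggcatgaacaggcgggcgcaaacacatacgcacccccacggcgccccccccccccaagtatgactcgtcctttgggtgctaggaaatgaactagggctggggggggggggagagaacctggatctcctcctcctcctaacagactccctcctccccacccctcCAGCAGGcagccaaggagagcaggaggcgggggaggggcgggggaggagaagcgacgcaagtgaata
*Fzd10*, chr5:128600856-128601105, plus strand: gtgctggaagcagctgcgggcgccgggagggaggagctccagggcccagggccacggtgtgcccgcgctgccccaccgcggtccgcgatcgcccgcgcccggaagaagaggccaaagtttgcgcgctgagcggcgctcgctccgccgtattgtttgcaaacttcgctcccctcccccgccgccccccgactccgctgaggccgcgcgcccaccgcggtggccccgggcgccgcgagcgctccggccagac
*Tcf7l1*, chr6:72789046-72789295, minus strand: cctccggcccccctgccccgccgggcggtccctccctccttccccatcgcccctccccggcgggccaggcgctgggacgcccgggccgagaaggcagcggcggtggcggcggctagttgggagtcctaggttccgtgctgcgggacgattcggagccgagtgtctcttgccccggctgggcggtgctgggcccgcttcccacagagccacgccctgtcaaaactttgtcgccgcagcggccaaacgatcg

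In Zic2 iso/iso embryos, none of the 52 members passed the test, whether ligand, receptor, antagonist or other. The receptor gene *Fzd5*, which the rule leaves out, did pass and is given below. The lowest adjusted p of a member was 0.74 (limma, Benjamini-Hochberg over all probes), and none of the 94 probes was called. An unadjusted limma p under 0.05 was found for 11 of the 94 and 6.02% of all probes. These sets differ in brightness: 52 of the 94 were above the background level in both genotypes. Of all probes, 40.7% were above it by their mean over the pools. Over all genes 0.0945% passed by their brightest probe, and over all probes 0.0442%, so that fewer than 1 member would be called at the rate of the array. Among the 33 members read in both genotypes, differences ran from −0.22 (*Nkd1*) to 0.25 (*Lrp6*), and the 95% intervals reached no further than −0.43 (*Nkd1*) and 0.57 (*Fzd2*). These intervals bound a difference in measured intensity for each gene alone and are not adjusted for the number of members. The median difference of the 33 was 0.04, beside −0.01 for the 10037 genes that exceeded the background level in each genotype. An unadjusted p under 0.05 was found for 6 of the 33 members (*Wnt5b*, *Wnt7b*, *Lrp6*, *Fzd10*, *Nkd1* and *Tcf7l1*) and for 10.9% of all such genes. The pools of the genotypes did not overlap for 3 of the 33 (*Wnt5b*, *Wnt7b* and *Axin1*) and for 11.6% of all such genes. By sign alone 23 of the 33 were higher in mutant pools, where 47.4% of all such genes were. The count was 18 of 33 without Zic2 iso/iso replicate 3, 19 without wildtype replicate 3 and 20 without wildtype replicate 2. With 1 of the other pools left out it was 21 to 23.

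**Figure D1:**
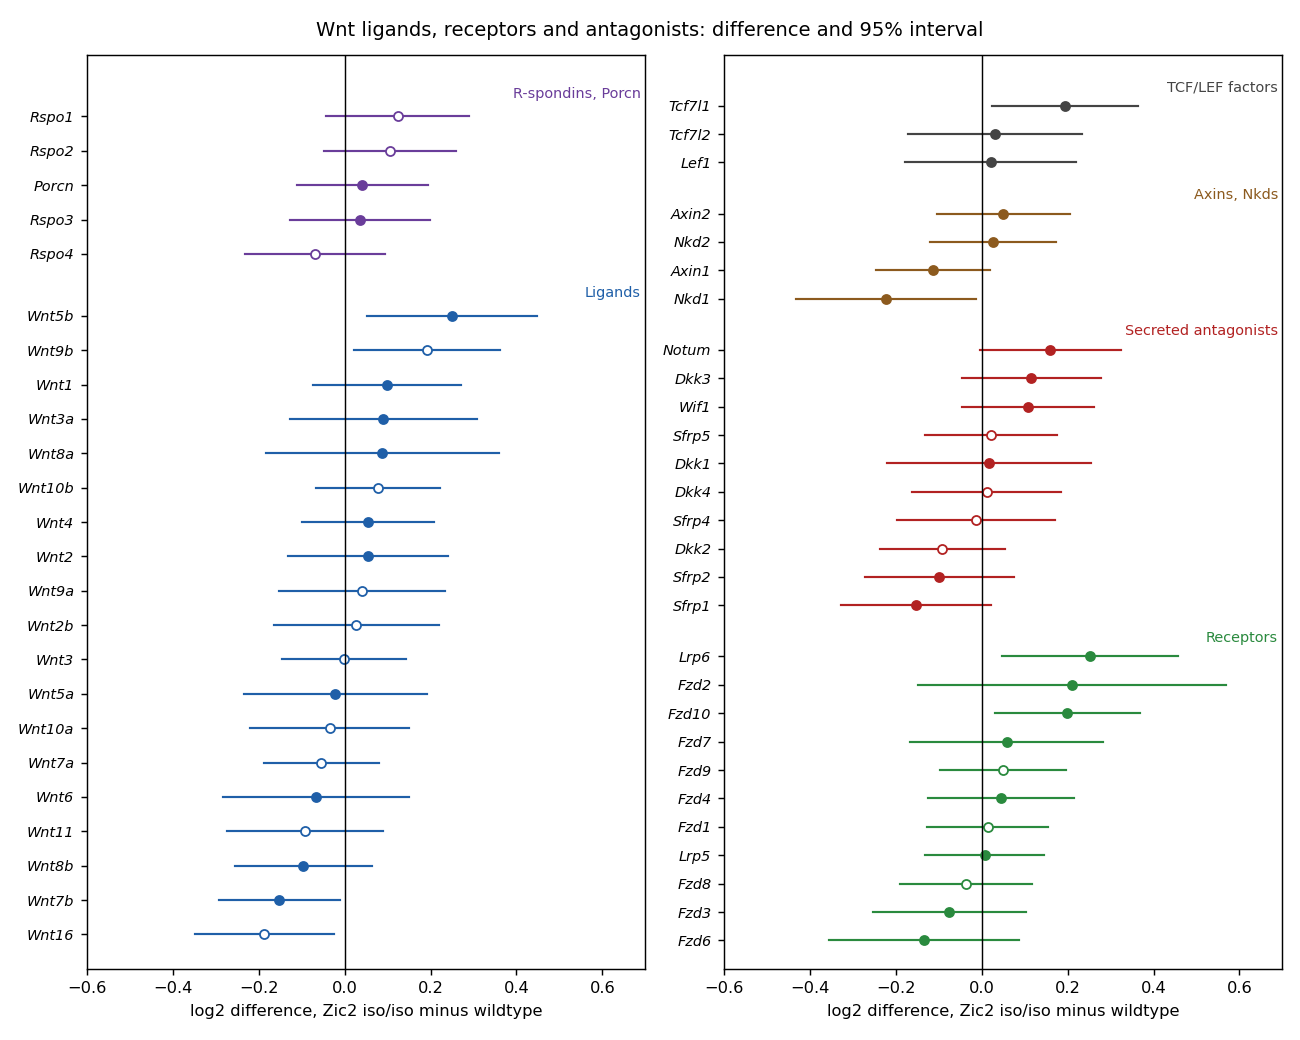
Log2 difference (Zic2 iso/iso minus wildtype, horizontal axis) of each of the 52 members by its brightest probe, grouped by role. Bars are 95% intervals of the limma fit from 3 pools per genotype, filled points are members above the background level in both genotypes and open points the others. The differences lie between −0.22 and 0.25, and most intervals cross 0.

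Among the 19 ligands, 10 exceeded the background level in each genotype, none passed the test, and the differences of the 10 ran from −0.15 to 0.25. *Wnt5b*, a ligand best known for β-catenin-independent signalling, was at 8.91, 9.30 and 9.22 in wildtype pools 1 to 3 and at 9.40, 9.40 and 9.39 in mutant pools. Every mutant pool was above every wildtype pool, and the mutant pools lay closer together than the wildtype pools. The means were 9.15 ± 0.21 and 9.40 ± 0.01 (SD, n = 3 each), a difference of 0.25 (SE 0.09, limma adjusted p = 0.74). Without wildtype replicate 1, the lowest pool, the difference was 0.13, and without wildtype replicate 2 it was 0.33. *Wnt7b*, a ligand later used in the lung, placenta and brain, was at 7.77, 7.78 and 7.84 in wildtype and 7.59, 7.63 and 7.71 in mutant pools. These groups did not overlap either and lay just above the background level, with a difference of −0.15 (SE 0.07, adjusted p = 0.81). A second probe of *Wnt7b* did not reach that level in either genotype, with means of 7.20 and 7.35.

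The ligands of the primitive streak and tail bud gave no difference past the spread between pools. *Wnt3a*, which is needed for the formation of trunk and tail mesoderm, was at 11.37, 11.32 and 11.21 in wildtype and 11.24, 11.28 and 11.66 in mutant pools. The mutant pool at 11.66 was replicate 3, and the other mutant pools lay within the wildtype range. The difference was 0.09 (SE 0.10, adjusted p = 0.96) and −0.04 without that pool. *Wnt8a*, another ligand of the streak, was at 9.68, 9.78 and 9.48 in wildtype and 9.55, 9.58 and 10.08 in mutant pools, so that again only replicate 3 was above the wildtype range. *Wnt5a*, which drives outgrowth of the tail, was at 10.45, 10.40 and 10.15 against 10.11, 10.38 and 10.44, with overlapping pools and a difference of −0.02 (SE 0.10, 95% interval −0.23 to 0.19). *Wnt3*, the ligand that starts the primitive streak, did not reach the background level in either genotype (mean 7.42 in each).

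Of the other ligands above the background level, *Wnt1* of the midbrain had means of 7.77 ± 0.14 and 7.87 ± 0.08 (SD, n = 3 wildtype and 3 mutant pools). *Wnt2*, a ligand of the early heart region and allantois, was at 8.92 ± 0.10 and 8.97 ± 0.16, and *Wnt4* at 7.84 ± 0.11 and 7.90 ± 0.03. *Wnt6*, a ligand of the surface ectoderm, was at 9.69 ± 0.05 and 9.62 ± 0.24, and *Wnt8b* of the forebrain at 7.86 ± 0.08 and 7.77 ± 0.10. By the brightest probe each of these 5 had overlapping pools, and their differences ran from −0.10 (*Wnt8b*) to 0.10 (*Wnt1*). A second probe of *Wnt4* had a mean above the background level in mutant pools only. It was at 7.381, 7.264 and 7.517 in wildtype and 7.613, 7.525 and 7.596 in mutant pools. These pools were separate, with a difference of 0.19 (limma adjusted p = 0.78). Another 4 ligands were above the background level in 1 genotype. *Wnt16* was at 7.59, 7.66 and 7.54 in wildtype and 7.54, 7.31 and 7.36 in mutant pools, and *Wnt9b*, a ligand of the later kidney, at 7.35, 7.51 and 7.48 against 7.50, 7.67 and 7.75. In both genes 1 pool kept the genotypes from separating, and the fitted differences were −0.19 (95% interval −0.35 to −0.02) and 0.19 (0.02 to 0.36, limma adjusted p = 0.79 for each). *Wnt10a* and *Wnt7a*, at −0.03 and −0.05, were within 0.1 of the background level in both genotypes. *Wnt2b*, *Wnt9a*, *Wnt10b* and *Wnt11* were below it in both.

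The R-spondin genes and the secretion gene *Porcn* differed little between the genotypes, and none of these 5 passed the test. *Porcn*, which encodes the acyltransferase that attaches the lipid to Wnt ligands, was at 9.50, 9.63 and 9.65 in wildtype and 9.58, 9.62 and 9.72 in mutant pools, a difference of 0.04 with a 95% interval of −0.11 to 0.19. *Rspo3*, an R-spondin of the streak and placental vessels, was at 10.47, 10.50 and 10.31 against 10.52, 10.35 and 10.51, a difference of 0.03 (SE 0.08). The pools of both genes overlapped throughout. *Rspo1* had means of 7.40 ± 0.05 and 7.52 ± 0.14 (SD, n = 3 each), of which the mutant mean was above the background level with mutant replicate 1 below it, and *Rspo2* and *Rspo4* were below it in both genotypes.

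Among the 11 receptor and co-receptor genes, 8 exceeded the background level in each genotype and none passed the test. *Lrp6*, the co-receptor gene most needed in the early embryo, was at 8.36, 8.25 and 7.99 in wildtype and 8.51, 8.32 and 8.53 in mutant pools. A single pair of pools overlapped, wildtype replicate 1 and mutant replicate 2, and the difference was 0.25 (SE 0.09, limma adjusted p = 0.75). It corresponds to a 1.19-fold difference in intensity. With normexp background correction the log2 difference was 0.33 (limma adjusted p = 0.81), and without wildtype replicate 3, the lowest pool, 0.15. Its paralogue *Lrp5* was at 7.87, 7.87 and 7.77 against 7.87, 7.81 and 7.84, a difference of 0.01.

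*Fzd10*, a Frizzled gene of the streak and neural tube, was at 11.36, 11.30 and 11.49 in wildtype and 11.49, 11.55 and 11.71 in mutant pools. Mutant replicate 1 and wildtype replicate 3 met at 11.49 and the other mutant pools were above all wildtype pools, with a difference of 0.20 (SE 0.08, adjusted p = 0.78) that was 0.14 without Zic2 iso/iso replicate 3. This gene was added after its values were seen. *Fzd2* had the widest spread of the members: it was at 11.13, 10.39 and 10.45 in wildtype and 10.67, 10.82 and 11.11 in mutant pools. Wildtype replicate 1 lay among the highest pools and the other wildtype pools below every mutant pool. The difference of 0.21 (SE 0.17, adjusted p = 0.94) became 0.45 (adjusted p = 0.24) without wildtype replicate 1 and 0.09 without Zic2 iso/iso replicate 3. *Fzd7* shared the high wildtype replicate 1, at 11.43 against 10.97 and 11.03 in the other wildtype pools, and its mutant pools were at 11.13, 11.24 and 11.23. Without that pool its difference went from 0.06 to 0.20.

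The other receptor genes above the background level, *Fzd3*, *Fzd4* and *Fzd6*, had differences of −0.08, 0.05 and −0.13 with overlapping pools. Without Zic2 iso/iso replicate 3 the difference of *Fzd6* was −0.02, and without Zic2 iso/iso replicate 1 that of *Fzd3* was −0.01. The mean of *Fzd8* was above the background level in wildtype and below it in mutant pools (7.48 ± 0.09 and 7.44 ± 0.06, SD, n = 3 each), with pools of both genotypes on either side of it, and *Fzd1* and *Fzd9* were below it in both. For comparison, the brightest probe of the excluded receptor gene *Fzd5* passed the test (limma adjusted p = 0.0048). *Fzd5* was at 10.79, 10.63 and 10.58 in wildtype and 9.71, 9.89 and 10.02 in mutant pools. Its difference of −0.79 lay outside the 95% interval of each of the 8 measured receptor genes, which reached down to −0.36 (*Fzd6*). Of its 3 other probes, 2 were below the background level and 1 was near it, at 7.67 in wildtype and 7.64 in mutant pools, a difference of −0.03. The difference between *Fzd5* and these genes was not itself tested.

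Among the 10 secreted antagonists, 6 exceeded the background level in each genotype and none passed the test. *Notum*, which encodes the enzyme that removes the lipid from Wnt ligands, was at 8.82, 8.97 and 8.85 in wildtype and 8.91, 9.11 and 9.09 in mutant pools. One wildtype pool lay above 1 mutant pool, and the difference was 0.16 (SE 0.08, adjusted p = 0.84). *Sfrp1*, a secreted Frizzled-related protein gene, was at 10.91, 10.72 and 10.79 against 10.51, 10.71 and 10.75, a difference of −0.15 (SE 0.08, adjusted p = 0.89) with mutant replicate 1 lowest. Without that pool it was −0.08. *Dkk1*, whose protein is needed for head formation, was at 8.15, 7.65 and 7.95 in wildtype and 7.79, 7.99 and 8.02 in mutant pools. The mutant pools lay inside the wildtype range, and the difference of 0.02 had a 95% interval of −0.22 to 0.25. *Dkk3*, a divergent family member, was at 8.63 ± 0.11 and 8.75 ± 0.08, *Sfrp2* at 7.90 ± 0.14 and 7.80 ± 0.08, and *Wif1* at 7.48 ± 0.09 and 7.58 ± 0.07 (SD, n = 3 each). *Dkk2*, *Dkk4*, *Sfrp4* and *Sfrp5* did not reach the background level in either genotype.

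The feedback genes *Axin2* and *Nkd1*, which are switched on by β-catenin and dampen the signal, and their paralogues *Axin1* and *Nkd2* were all above the background level. *Axin2*, widely used as a readout of the pathway, was at 10.90, 10.98 and 10.96 in wildtype and 10.91, 10.97 and 11.12 in mutant pools. Mutant replicate 3 was highest and the other pools were interleaved, with a difference of 0.05 (SE 0.07, 95% interval −0.10 to 0.20) that became −0.01 without that pool. *Nkd1*, which encodes an inhibitor that binds Dishevelled, was at 9.79, 9.81 and 9.51 in wildtype and 9.31, 9.63 and 9.51 in mutant pools. The lowest wildtype pool lay at the level of the middle mutant pool, and the difference was −0.22 (SE 0.10, adjusted p = 0.82), which was −0.14 without Zic2 iso/iso replicate 1 and −0.32 without wildtype replicate 3.

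*Axin1*, the scaffold of the destruction complex, was at 11.15, 11.14 and 11.11 in wildtype and 11.02, 10.99 and 11.04 in mutant pools. All mutant pools were below all wildtype pools, by a difference as small as −0.11 (SE 0.06, adjusted p = 0.89). *Nkd2* was at 8.18 ± 0.05 and 8.20 ± 0.08 (SD, n = 3 each).

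The TCF/LEF factors, which carry β-catenin to its target genes, gave 3 genes above the background level and no call. *Tcf7l1*, mainly a repressor that is needed for the forebrain, was at 12.03, 11.75 and 11.83 in wildtype and 12.07, 12.01 and 12.11 in mutant pools. Wildtype replicate 1 lay among the mutant pools and the other wildtype pools below them, with a difference of 0.19 (SE 0.08, adjusted p = 0.79) that was 0.27 without that wildtype pool. *Tcf7l2* was at 9.47, 9.19 and 9.05 against 9.25, 9.26 and 9.31, a difference of 0.03 with the mutant pools inside the wildtype range. *Lef1*, an activator of the tail bud, was at 8.02, 8.06 and 7.78 in wildtype and 7.85, 7.92 and 8.14 in mutant pools, a difference of 0.02.

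**Figure D2:**
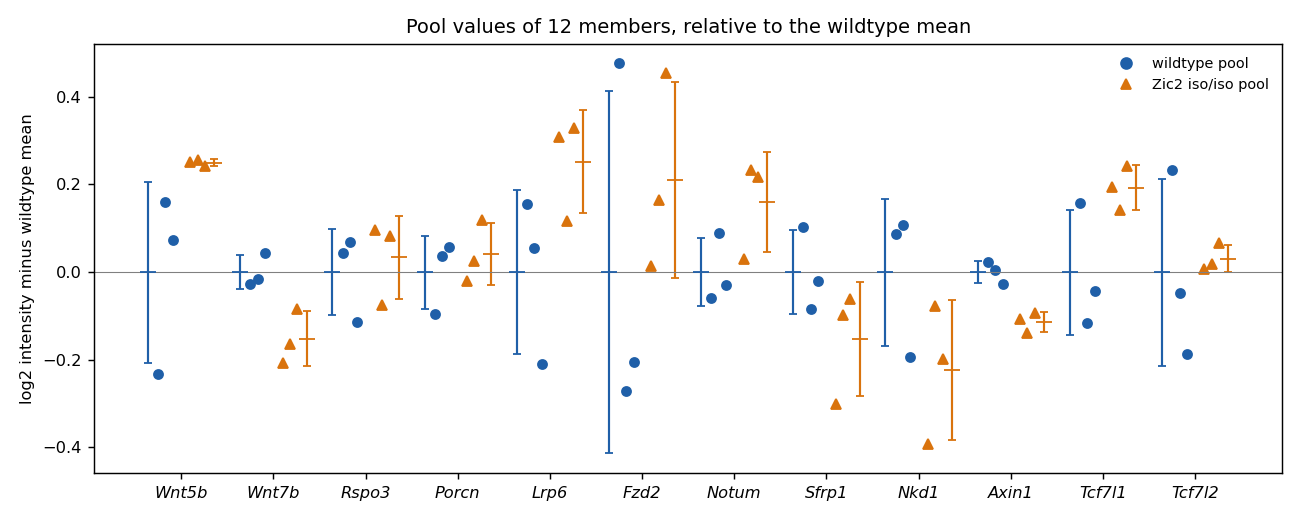
Log2 intensity minus the wildtype mean of the gene (vertical axis) in each pool of 12 members, 2 for each role. Circles are wildtype and triangles Zic2 iso/iso pools, and the bars beside them are the mean and SD of 3 pools. The pools of *Wnt5b*, *Wnt7b* and *Axin1* are separate, and those of the other 9 overlap.

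Probes of the same gene did not always point the same way. Of 26 members with more than 1 probe, 14 had more than 1 above the background level, and in 10 of these the probes differed in sign. The widest gap was that of *Sfrp1*. Its brightest probe gave −0.15, while its other probe was at 10.66, 10.32 and 10.10 in wildtype and 10.67, 10.64 and 10.47 in mutant pools, a difference of 0.23 (SE 0.12). Both of these *Sfrp1* probes were well above the background level, and their mean over probes gave 0.04. For *Lrp6* the brightest probe gave 0.25 and the other −0.02, with the latter near the background level at 7.64 in wildtype and 7.62 in mutant pools. For *Nkd1* they gave −0.22 and 0.04, with the second probe also near that level (7.57 and 7.60), and for *Fzd6* −0.13 and 0.10. In *Rspo3* the second probe was at 8.43, 8.50 and 8.66 in wildtype and 8.44, 8.37 and 8.39 in mutant pools, a difference of −0.13. *Axin1*, *Fzd3*, *Fzd10*, *Wnt5a* and *Wnt6* also had probes of both signs. The *Fzd10* probes gave 0.20, 0.18 and −0.01, and the other probe of *Axin1* lay at the background level (7.47 in wildtype and 7.50 in mutant pools). *Wnt8a*, *Dkk3*, *Notum* and *Porcn* had a single sign over their probes, and the 3 probes of *Wnt8a* gave 0.07 to 0.10.

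**Figure D3:**
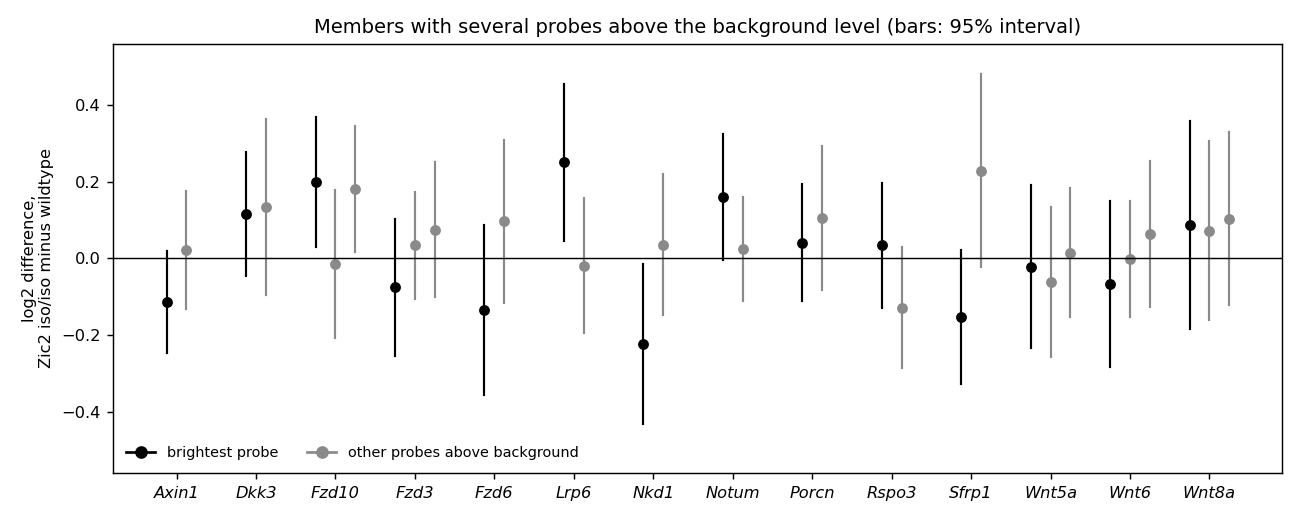
Log2 difference (Zic2 iso/iso minus wildtype, vertical axis) of each probe above the background level, for the 14 members with more than 1 such probe. Black marks the brightest probe of a gene, grey the others, and bars are 95% intervals of the limma fit. The probes of *Sfrp1* lie furthest apart, at −0.15 and 0.23.

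Several members varied more among pools of a genotype than between genotypes, in ways that named pools share. These genes were picked out after their values were seen and are given as a description. Zic2 iso/iso replicate 3 was the highest pool for 9 of the 33 members, among them *Wnt3a*, *Wnt8a*, *Axin2*, *Fzd10* and *Lef1*, and over all genes above the background level it was highest for 17.8%. All 3 probes of *Wnt8a* had this pool highest, and without it their differences were −0.02, −0.07 and −0.08. Of the 4 measured streak and tail bud markers, 3 were highest in the same pool. *Cdx2*, a homeobox gene of the tail bud, was at 12.66 there, at 12.52 and 12.40 in the other mutant pools and at 12.08 to 12.34 in wildtype. *Evx1*, another homeobox gene of the streak, was at 11.69, with the other 5 pools between 11.31 and 11.53. *Fgf8*, a growth factor gene of the streak, was at 10.45 there and nearly the same, 10.44, in mutant replicate 2. *Cdx4*, a paralogue of *Cdx2*, was highest in mutant replicate 1, at 8.64 against 8.52 in replicate 3. The summed intensity of the 4 measured streak and tail bud markers was 9897 to 11526 in mutant and 8430 to 9222 in wildtype pools. The heart and blood markers of this pool were low, as given above, and their part in the pattern was not tested. Wildtype replicate 1 was the highest pool for 10 of the 33 members, among them *Fzd2*, *Fzd7*, *Dkk1*, *Fzd3* and *Tcf7l2*, beside 14.6% of all genes.

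**Figure D4:**
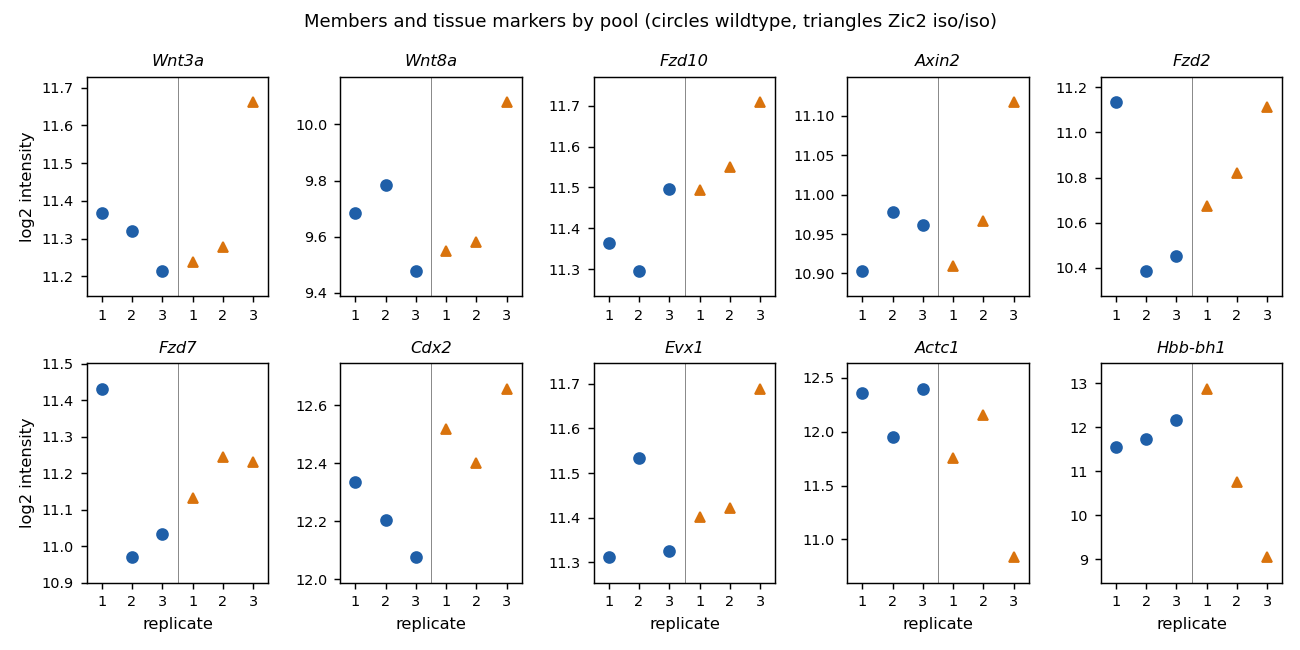
Log2 intensity (vertical axis, range set for each gene) by replicate in wildtype (circles, left) and Zic2 iso/iso (triangles, right) pools, for 6 members and the tissue markers *Cdx2* and *Evx1* (streak and tail bud), *Actc1* (heart) and *Hbb-bh1* (blood). Mutant replicate 3 is highest in *Wnt3a*, *Wnt8a*, *Fzd10*, *Axin2*, *Cdx2* and *Evx1* and lowest in *Actc1* and *Hbb-bh1*, and wildtype replicate 1 is highest in *Fzd2* and *Fzd7*.

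The wider pathway was read from a list of 46 other components, of which 45 had a probe, 29 exceeded the background level in each genotype and none passed the test. The median difference of the 29 was 0.02, and the pools did not overlap for 5 of the 29, where they did not for 11.6% of all genes above the background level. These 5 are named by that criterion. *Wls*, which encodes the carrier that brings Wnt ligands to the cell surface, was at 10.69, 10.83 and 10.38 in wildtype and 10.92, 11.12 and 10.90 in mutant pools, a difference of 0.35 (SE 0.10, limma adjusted p = 0.62). *Ptk7*, a co-receptor gene of planar cell polarity, was at 9.40, 9.11 and 9.22 against 9.49, 9.50 and 9.59, a difference of 0.29 (adjusted p = 0.53). *Ryk*, a receptor gene for Wnt ligands, was at 12.33, 12.38 and 12.28 against 12.45, 12.46 and 12.55, and *Tnks*, whose product tags Axin for destruction, at 10.43, 10.45 and 10.47 against 10.72, 10.48 and 10.63. In these 4 genes every mutant pool was above every wildtype pool. *Cer1*, which encodes a secreted antagonist of Nodal, BMP and Wnt signals in the anterior endoderm, was at 7.78, 7.96 and 8.04 in wildtype and 7.62, 7.47 and 7.77 in mutant pools, a difference of −0.31 (adjusted p = 0.58). *Ctnnb1*, the gene of β-catenin, had overlapping pools and a difference of 0.02.

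A list of 26 genes taken as targets of the pathway was written with earlier results of these data known. It covers the gastrula and tail bud, with some genes of the midbrain and hindbrain among them. Of these 26 genes, 22 had a probe and 19 were above the background level in both genotypes. One of them passed the test, where 0.0945% of all genes did. It was *En1* of the midbrain and hindbrain, at 10.32, 10.23 and 10.54 in wildtype and 9.41, 9.82 and 9.59 in mutant pools, a fall of its brightest probe with limma adjusted p = 0.020. All 4 midbrain and hindbrain markers above the background level, *En1* itself included, were lower in mutant pools, with a median difference of −0.25. Of the others, *Egr2* of the hindbrain, at −0.41 (limma adjusted p = 0.19), also had separate pools. *Gbx2* and *En2*, at −0.08 and −0.04, had overlapping pools. The summed intensity of these genes with *Pax2*, which was below the background level, was 7819 to 8356 in wildtype and 6114 to 7988 in mutant pools. *En1* is part of that sum, and the part of tissue makeup in the *En1* result was not tested. The median difference of the 19 was 0.05. The pools did not overlap for 3 of the 19, *En1* among them, where they did not for 11.6% of all genes above the background level. The others were *Cdx2* and *Mesp1*, an early mesoderm gene, with *Mesp1* at 8.34, 8.38 and 8.28 in wildtype and 8.63, 8.78 and 8.66 in mutant pools. The differences of *Cdx2* and *Mesp1* were 0.32 and 0.35 (limma adjusted p = 0.50 and 0.16). *Sp5*, a direct target in the streak, had a difference of 0.07, *Cdx1* of 0.09, *Tbx6* of −0.13 and *Dll1* of −0.13, each with overlapping pools.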

How the data were processed

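RNA from 6 pools of whole embryos (3 Zic2 iso/iso, 3 wildtype, grouped by the titles in the labels) was hybridised to Illumina Mouse WG6 v2 arrays. What the authors deposited is intensity per probe on a linear scale, with a lowest value of 104 to 122 and a median of 154 to 187 per pool. The values carry a background offset, differ in scale between pools and do not show the variance stabilising step that the methods name. Intensities were floored at 1, converted to log2, quantile normalised and fitted with limma 3.58.1 (R 4.3.3; lmFit and eBayes, no covariates). P-values were Benjamini-Hochberg adjusted over 45281 probes, with a threshold of 0.05. Quantile normalisation stands in for the variance stabilising package of the methods, which was not run. Depth does not apply, and the number of arrays limits the precision.

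Symbols came from the platform annotation: 34885 probes carry 1 symbol, 18 several and 10378 none. The brightest probe over all pools stands for a gene. Pool values are given for members that passed the test, that had separate pools and were above the background level in either genotype, or that had 1 of the 2 largest differences of their role. Genes of the 2 pathway lists are named where they passed or had separate pools. Other names were added after the values were seen. The members and lists were chosen with earlier results of these data known. The steps were tested on simulated data. Alternatives were other scalings, normexp (offset 50), a filter on dim probes, other variance priors, the replicate block, leaving out each pool, and averaging the probes of each gene. Probe sequences were not used here.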

Additional observations from a re-analysis of the deposited data

How the results depend on the processing

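No member was called under any of the 14 alternatives tried, with a lowest adjusted p of 0.24 (limma, *Fzd2* without wildtype replicate 1), and the count of members called was 0 with each pool left out. In the reported fit 6 of the 33 members above the background level in both genotypes had an unadjusted p under 0.05, where 10.9% of all such genes did. The number of all probes called was 20. It was 4 without normalization between arrays, 11 with median centring, 31 with a variance prior that follows intensity, and 14 to 28 with 1 pool left out. Deviations from the genotype means had correlations of −0.13, −0.02 and −0.12 between same-numbered pools of both genotypes. Between differently numbered pools they were −0.02 to 0.13. With 3 pools per genotype these values cannot tell whether same-numbered pools shared a litter. With the replicate block 17 probes and 0 members were called. For the 12 members in the plot of pool values, 163 of the values under an alternative kept direction and side of the threshold and 5 changed sign, none of them a call. With single pools left out, *Porcn* ran from −0.0066 (without wildtype replicate 1) to 0.072, *Rspo3* from −0.021 (without wildtype replicate 3) to 0.089 and *Tcf7l2* from −0.062 (without wildtype replicate 3) to 0.147. With probes averaged by gene, *Rspo3* was at −0.047 and *Sfrp1* at 0.038. The cause of these changes was not tested. Without normalization the median difference of the 33 measured members was 0.12 and that of all genes above the background level 0.07, and 26 of the 33 were higher. Intensities near the background level limit what could be read for 19 of the 52 members.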
